A study of Rattus norvegicus with 9 samples.

Results

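Integrins, cadherins and neural cell adhesion molecules hold cells to the matrix and to each other, and their expression was compared between retinal progenitor cells (RPCs) made from rat embryonic stem cells (rESCs) and primary RPCs. The genes were chosen by their symbols in the array's annotation, as integrin subunits and genes named after them, cadherins, protocadherins, Ncam, contactin, Cadm and Icam genes, and L1cam, Nrcam, Chl1, Vcam1, Cd9, Cd44, Cd63 and Cd81. This rule found 81 adhesion genes among the 14217 genes with a probe set of their own. A probe set is the group of short probes that measures 1 transcript, and the probe set with the highest mean over the 9 arrays stood for its gene. Of the 81 genes, 48 were bright enough to be tested, among 9956 tested genes in all.

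RNA from 3 groups of 3 samples, 9 in all, was hybridised to Affymetrix Rat Genome 230 2.0 arrays. rESC-RPC2 and rESC-RPC1 were both differentiated from 1 rESC line of DA rats, DA8-16, as quickly aggregated serum-free bodies with Matrigel and the Wnt inhibitor IWR-1e, then with fetal bovine serum, and were both harvested on day 16. rESC-RPC2 was kept in suspension until day 14 and was adherent only for the last days, while rESC-RPC1 was adherent from day 10 and went into N2 medium with serum on day 14. P-RPC came fresh from retinal tissue of SD rats on postnatal day 1, dissociated with papain. No sorting of these cells is described. Against P-RPC, strain and culture change together with the cell type, and between the kinds of rESC-RPCs medium and time of adherence change together. These cannot be told apart. The labels call the samples of a group biological replicates and do not name the culture or litter of each, and the p-values measure the spread between these samples.

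Integrins are pairs of an α and a β subunit that bind matrix proteins such as laminin, fibronectin and collagen and link them to actin through focal adhesions. Classical cadherins bind the same cadherin on a neighbouring cell and are tied to actin by catenins, and N-cadherin (Cdh2) is the main one of the neural retina. Protocadherins and adhesion molecules of the immunoglobulin family, such as Ncam1 and L1cam, act in neurite growth, fasciculation and the recognition of partner cells. Tetraspanins such as Cd9 and Cd81 are membrane proteins that group integrins with other receptors.

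Values are MAS 5.0 signals, a linear measure of brightness, which the authors had brought to 1 common trimmed mean. The detection threshold was set at 123, which is the median over the probe sets of all arrays. A gene was called higher or lower at a Benjamini-Hochberg adjusted p under 0.05 from limma, over 9956 genes, if it also differed by 2-fold or more. If none of a group's 3 arrays reached the threshold, a lower bound of the fold is given, which is the mean of the other group over the threshold. The precision is limited by there being only 3 arrays in a group.

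The labels were set against markers of each cell type. Of 7 retinal progenitor genes on the array, 5, 5 and 6 had a mean at or above the threshold in rESC-RPC2, rESC-RPC1 and P-RPC. Their summed signal was 14880 to 15870, 15920 to 22870 and 55400 to 59610 in these groups, so it was lower in both kinds of rESC-RPCs. Pax6, a transcription factor that defines retinal progenitor cells, averaged 84.7 ± 24.02 in rESC-RPC2, 118.4 ± 74.3 in rESC-RPC1 and 13970 ± 423 in P-RPC (SD, n = 3 each). Its mean was under the threshold in both kinds of rESC-RPCs, and that of Six3 was under it in all groups. By RT-qPCR the paper reports both genes as induced in rESC-derived cells, at lower levels than in P-RPC. It also reports similar Pax6 staining in both kinds of rESC-RPCs. A mean under the threshold here therefore does not show that a gene is absent. Of 7 photoreceptor genes, 0, 0 and 6 were detected, and of 10 microglia and macrophage genes 0, 0 and 7. All 10 neuron genes were detected in rESC-RPC2 and 9 each in rESC-RPC1 and P-RPC. Of 11 genes of mesenchymal and smooth muscle cells, 7, 8 and 3 were detected, and of 10 of astrocytes and radial glia 6, 8 and 5. Detection for pigment cells was 0, 2 and 6 of 7, for the oligodendrocyte lineage 3, 3 and 2 of 7, for endothelium 1, 1 and 2 of 10, for epithelium 0, 1 and 2 of 7, for pluripotent cells 1, 2 and 0 of 2, and for lens 0, 0 and 6 of 7. Of 7 pluripotency genes listed, only Klf4 and Esrrb had a probe set of their own, and Klf4 was the one detected in rESC-RPC2. Oct4 and Nanog were not among them, and the paper reports both as almost undetectable in rESC-RPCs by RT-qPCR. The summed lens signal was 92500 on the array of P-RPC replicate 1, against 1630 and 4947 on the other P-RPC arrays.

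Promoters are shown for 3 of the adhesion genes that the comparisons turn on, Icam1 and Itgb1, which were called higher in both kinds of rESC-RPCs, and Cd9, which was called higher in rESC-RPC1. Each is the RefSeq window of 250 bases before to 50 bases after the gene's start, on build GRCr8. The windows lie at chr8:27829595-27829894 on the plus strand for Icam1, at chr19:73602027-73602326 on the plus strand for Itgb1 and at chr4:159975309-159975608 on the minus strand for Cd9. Capitals mark matches to the motifs searched:
Icam1: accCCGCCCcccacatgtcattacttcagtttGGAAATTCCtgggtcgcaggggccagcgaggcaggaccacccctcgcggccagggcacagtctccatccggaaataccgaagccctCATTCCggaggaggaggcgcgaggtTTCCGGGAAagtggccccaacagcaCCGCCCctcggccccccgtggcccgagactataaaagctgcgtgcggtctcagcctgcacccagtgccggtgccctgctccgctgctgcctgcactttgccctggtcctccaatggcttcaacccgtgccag
Itgb1: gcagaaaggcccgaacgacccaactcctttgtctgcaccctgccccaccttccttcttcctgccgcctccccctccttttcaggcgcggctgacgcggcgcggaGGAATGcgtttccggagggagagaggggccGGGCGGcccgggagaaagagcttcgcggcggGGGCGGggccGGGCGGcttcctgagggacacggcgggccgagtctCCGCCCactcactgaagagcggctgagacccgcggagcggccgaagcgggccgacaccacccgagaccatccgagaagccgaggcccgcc
Cd9: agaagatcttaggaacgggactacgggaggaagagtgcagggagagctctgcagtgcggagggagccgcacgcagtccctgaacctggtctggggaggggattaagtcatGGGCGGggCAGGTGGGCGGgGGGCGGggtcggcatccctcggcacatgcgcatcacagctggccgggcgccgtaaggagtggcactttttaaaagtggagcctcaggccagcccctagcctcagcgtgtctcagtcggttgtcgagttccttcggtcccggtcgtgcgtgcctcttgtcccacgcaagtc

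The motifs were an E-box (CAGGTG), a GC box (GGGCGG), an AP-1 site (TGAGTCA), a STAT site (TTCCNGGAA), a form of the κB site (GGAAATTCC), a TEAD site (GGAATG) and a CRE (TGACGTCA), each searched on both strands. The Icam1 window held the κB form 218 bases before the start, a TEAD site on the minus strand 132 bases before it, the STAT site 107 bases before it and 2 GC boxes on the minus strand. That of Itgb1 held 4 GC boxes, 116, 85, 75 and 40 bases before the start, and a TEAD site 146 bases before it. In Cd9 the E-box, 132 bases before the start, overlapped 1 of 3 GC boxes by its last base. Among 33469 rat promoters of the same length, 0.332% held the κB form, 1.27% the STAT site, 14.2% the TEAD site, 18.8% the E-box, 33.1% the GC box, 4.63% the AP-1 site and 1.83% the CRE. Windows were matched by gene ID for 57 of the 81 adhesion genes, of which 1 held the κB form, 1 the STAT site, 10 the TEAD site, 8 the E-box, 22 the GC box, 5 the AP-1 site and 0 the CRE. A match is a description of these letters and not a binding site.

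The adhesion genes were first counted against P-RPC. In rESC-RPC2, 14 of the 48 tested genes were called higher and 8 lower, so that 45.8% were called, where 23.7% of all tested genes were called (10.7% higher and 13.0% lower). In rESC-RPC1, 16 were called higher and 10 lower, or 54.2%, where the share over all genes was 21.5% (12.0% higher and 9.56% lower). Between the kinds of rESC-RPCs, 9 were called higher and 10 lower in rESC-RPC2 against rESC-RPC1, or 39.6%, where the share over all genes was 14.3% (5.02% higher and 9.25% lower). The median log2 fold change of the 48 genes was 0.42, 0.40 and -0.00 in these comparisons, against -0.02, -0.01 and -0.03 over all genes. These counts are descriptions, since a gene that passes the filter only through the group where it is bright has to differ. Among the 48 genes, 8 reached the threshold in 1 group alone, namely Cdh1, Cdh15, Cdh20, Cntn1, Cntn4, Itga7, Pcdhb12 and Pcdhb6. The difference of that group from the others is fixed by the filter, so their p-values for it are no separate evidence. Another 10 reached the threshold in 2 groups, namely Cadm3, Cdh6, Cdh7, Cdh10, Chl1, Cntn3, Icam1, Itga9, Pcdh20 and Pcdhb22. They passed the filter through these groups, so their p-values against the remaining group are no separate evidence either. The other 30 reached it in all 3. The arrays of every called gene did not overlap between the groups compared. How often this holds over all called genes was not counted, so it is no result about the adhesion genes.

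**Figure D1:**
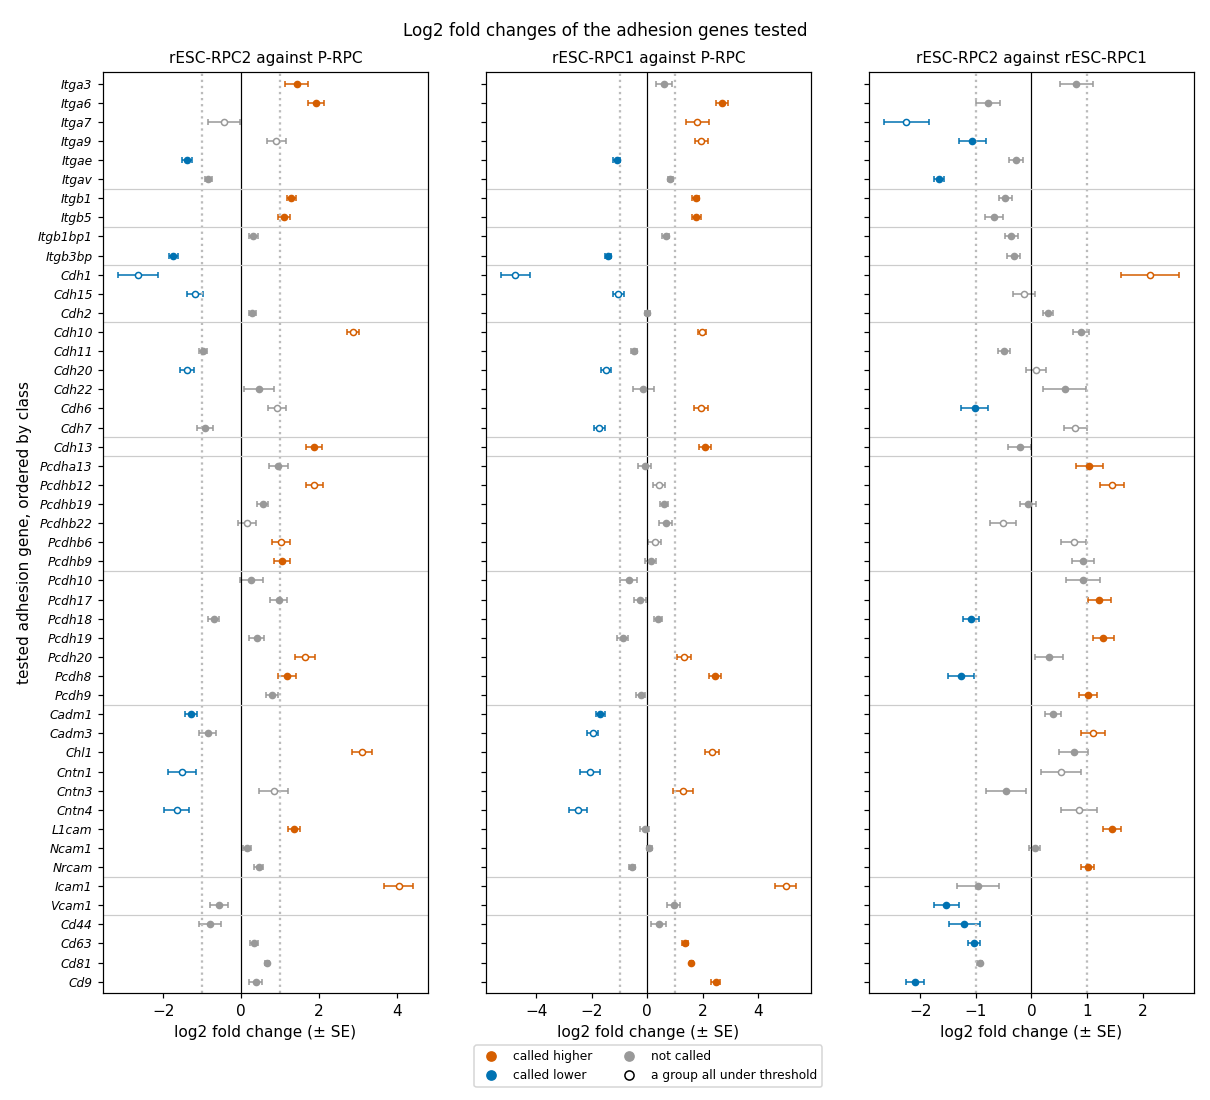
Log2 fold changes (horizontal axis, ± standard error from limma) of the 48 tested adhesion genes, ordered by class from integrin α subunits at the top to tetraspanins and Cd44 at the bottom, in the 3 comparisons. Orange marks genes called higher, blue those called lower and grey those not called, open symbols have a group with all arrays under the detection threshold, and dotted lines mark a 2-fold change. Integrins and tetraspanins lie to the left in rESC-RPC2 against rESC-RPC1 except Itga3, while L1cam, Nrcam, Pcdh9, Pcdh17 and Pcdh19 lie to the right.

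The level of an integrin in a culture depends both on how many cells carry it and on how much each carries, and in bulk RNA fewer cells of a type and less RNA per cell cannot be told apart. Both tested β subunits, Itgb1 and Itgb5, were called higher in both kinds of rESC-RPCs than in P-RPC. Itgb1 (gene ID 24511), the β1 subunit shared by most laminin, collagen and fibronectin receptors, had signals of 7971, 6420 and 7517 on the rESC-RPC2 arrays, 10080, 8554 and 11760 on the rESC-RPC1 arrays and 3132, 2857 and 2959 on the P-RPC arrays. All rESC-RPC arrays were above all P-RPC arrays, and the rESC-RPC1 arrays were the highest. Its log2 fold change against P-RPC was 1.29 in rESC-RPC2 (SE 0.12, adjusted p = 5.71e-06) and 1.75 in rESC-RPC1 (SE 0.12, adjusted p = 7.37e-07). Another probe set of Itgb1 was called higher in both as well, by 1.60 and 2.26 on the log2 scale. Itgb5, the β5 subunit that pairs with αv in a vitronectin receptor, read 687.9, 482.7 and 566.7 in rESC-RPC2, 814.2, 818.1 and 1131 in rESC-RPC1 and 267.8, 278.3 and 256.5 in P-RPC. The 3 groups did not overlap. The log2 fold changes of Itgb5 were 1.10 in rESC-RPC2 (SE 0.16, adjusted p = 0.000174; 0.97 without rESC-RPC2 replicate 1, which is under the fold threshold) and 1.77 in rESC-RPC1 (SE 0.16, adjusted p = 7.11e-06).

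Among the α subunits, Itga6 changed most against P-RPC. Itga6 (gene ID 114517), the α6 subunit of laminin receptors, had signals of 1965, 1933 and 1712 in rESC-RPC2, 3466, 2133 and 4415 in rESC-RPC1 and 499.6, 460.6 and 522.2 in P-RPC. The rESC-RPC arrays were all above the P-RPC arrays, and rESC-RPC1 replicate 2 lay near the rESC-RPC2 arrays, without which array the difference between the kinds of rESC-RPCs, -0.78, was -1.07 and called. Log2 fold changes were 1.92 in rESC-RPC2 (SE 0.21, adjusted p = 2.29e-05) and 2.70 in rESC-RPC1 (SE 0.21, adjusted p = 2.47e-06). Itga3, the α3 subunit of another laminin receptor, was called higher in rESC-RPC2 alone, with 863.5, 552.2 and 624 there, against 283.6, 304.4 and 643 in rESC-RPC1 and 294.2, 244.9 and 216.6 in P-RPC. A single rESC-RPC1 array, replicate 3, reached the rESC-RPC2 level, and the difference between the kinds of rESC-RPCs (0.81, SE 0.29, adjusted p = 0.0413) was under 2-fold with it and 1.18 without it. Against P-RPC the log2 fold change of Itga3 was 1.42 in rESC-RPC2 (SE 0.29, adjusted p = 0.00162) and 0.61 in rESC-RPC1 (SE 0.29, adjusted p = 0.0934).

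Itgav, the αv subunit of vitronectin and fibronectin receptors, lay on opposite sides of P-RPC in the 2 kinds of rESC-RPCs. Its signals were 1108, 1090 and 952.5 in rESC-RPC2, 3243, 3161 and 3651 in rESC-RPC1 and 1790, 2045 and 1831 in P-RPC. No arrays of the 3 groups overlapped. In rESC-RPC2 against rESC-RPC1 the log2 fold change was -1.67 (SE 0.09, adjusted p = 1.59e-06), while that against P-RPC was -0.85 in rESC-RPC2 and 0.83 in rESC-RPC1, each under 2-fold. The other probe sets of Itgav, at signals of 108.7 to 572.3, were called higher in rESC-RPC1 (1.53 and 1.50 against P-RPC) and were not called in rESC-RPC2 (-0.07 and 0.38), so the position of rESC-RPC2 below P-RPC rests on the brightest probe set.

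Itga9 and Itga7 were called higher in rESC-RPC1 alone. Itga9, a subunit of tenascin and osteopontin receptors, had 192.6, 130.6 and 140.4 in rESC-RPC2, 266.3, 293.4 and 407.4 in rESC-RPC1 and 63.57 to 96.33 in P-RPC, with a difference of at least 2.59-fold between rESC-RPC1 and P-RPC (adjusted p = 6.01e-05). Between the kinds of rESC-RPCs its log2 fold change was -1.06 (SE 0.24, adjusted p = 0.00457), and it was -0.88 without rESC-RPC1 replicate 3 and -0.95 without rESC-RPC2 replicate 2, which were not called, and just short of 2-fold without rESC-RPC2 replicate 3. Against P-RPC the value in rESC-RPC2 was 0.90 and not called, but 1.01 and called without P-RPC replicate 3 or rESC-RPC2 replicate 2. Itga7, a laminin receptor subunit of muscle, was under the threshold on all rESC-RPC2 and P-RPC arrays and read 147.9 to 216.8 in rESC-RPC1, at least 1.37-fold higher than either group. With signals under the threshold raised to it, the log2 fold changes of Itga7 were 0.46 in rESC-RPC1 against P-RPC and -0.46 in rESC-RPC2 against rESC-RPC1, neither called. Itgae, the αE subunit known from lymphocytes that bind E-cadherin, was called lower in both kinds of rESC-RPCs, with 412.7, 435.7 and 373.5 in rESC-RPC2, 553.2, 504.3 and 433.6 in rESC-RPC1 and 936.6, 1164 and 1083 in P-RPC. Log2 fold changes of Itgae were -1.38 in rESC-RPC2 (SE 0.13, adjusted p = 6.55e-06) and -1.10 in rESC-RPC1 (SE 0.13, adjusted p = 3.62e-05).

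Of the β2 integrins of leukocytes, none was tested. Itgam, the αM subunit of microglia and macrophages, read 3.17 to 4.986 in rESC-RPC2, 2.656 to 5.707 in rESC-RPC1 and 2.618 to 20.97 in P-RPC, and Itgb2, its β2 partner, 47 to 54.55, 46.68 to 76.03 and 80.15 to 84.21. Itgax and Itgad did not reach the threshold on any array, and Itgal reached it on 1 P-RPC array, at 138.8. In P-RPC, 7 of 10 other microglia and macrophage genes were nevertheless detected, with a summed signal of 1838 to 2166, against 229.3 to 350.3 in rESC-RPC2 and 162.8 to 293.2 in rESC-RPC1. Of the 15 α and 7 β subunits on the array, 6 and 2 passed the filter. Itga11 and Itga1, which are collagen receptor subunits, had their highest signals on the array of rESC-RPC1 replicate 3 (364.6 and 153.9) and stayed under the threshold on every other array. Itga2b reached it on 2 rESC-RPC1 arrays, and Itgb3, Itgb4, Itgb6, Itgb7, Itga5 and Itga8 reached it on none.

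Of the genes named for integrin binding, Itgb3bp was called lower and Itgb1bp1 was not called, while Itgb1bp2 and Itgbl1 were not tested. Itgb3bp, which also encodes the kinetochore protein CENP-R, had 765.5, 1108 and 903.6 in rESC-RPC2, 1143, 1093 and 1185 in rESC-RPC1 and 2981, 3155 and 3005 in P-RPC. The P-RPC arrays were far above the rest. The log2 fold change was -1.74 in rESC-RPC2 (SE 0.12, adjusted p = 9.48e-07) and -1.42 in rESC-RPC1 (SE 0.12, adjusted p = 4.39e-06). Itgb1bp1, an inhibitor of β1 integrin activation, was 0.31 and 0.67 above P-RPC on the log2 scale in rESC-RPC2 and rESC-RPC1, under 2-fold. On its dimmer probe set the values were -0.92 (SE 0.36, adjusted p = 0.0471) and -0.42, not called, so this direction rests on the brighter probe set.

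**Figure D2:**
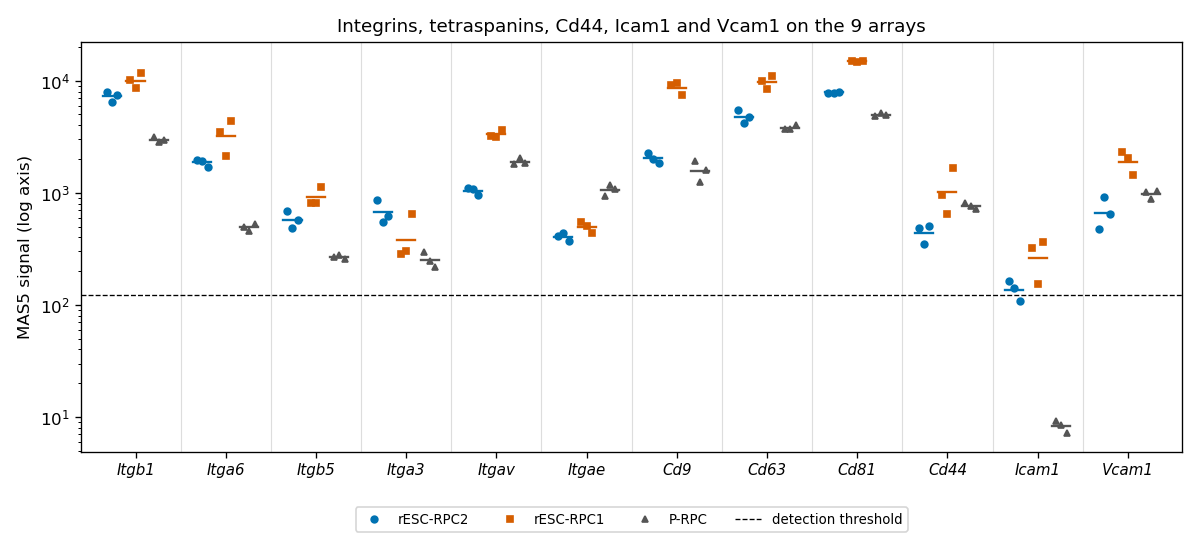
MAS5 signals (vertical log axis) of 12 adhesion genes on the 9 arrays, with rESC-RPC2 as circles, rESC-RPC1 as squares and P-RPC as triangles, a bar at each geometric mean and a dashed line at the detection threshold. Levels can be compared between groups of 1 gene, not between genes. Itgb1, Itga6 and Itgb5 are higher in both kinds of rESC-RPCs, and Cd9 stands at 7468 to 9474 in rESC-RPC1, against 1838 to 2287 in rESC-RPC2 and 1252 to 1940 in P-RPC.

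Of Cd44 and the 3 tetraspanins, 3 were called higher in rESC-RPC1 and 0 in rESC-RPC2 when set against P-RPC. Over all genes, 12.0% and 10.7% were called higher. With 4 genes these counts are a description, and they rest on the 2-fold threshold. In rESC-RPC2 all arrays of Cd81 and Cd63 were above P-RPC too, by 0.66 and 0.33 on the log2 scale. Cd9 (gene ID 24936), a tetraspanin of glia and many cultured cells, had signals of 2287, 1995 and 1838 in rESC-RPC2, 9162, 9474 and 7468 in rESC-RPC1 and 1940, 1252 and 1585 in P-RPC. The rESC-RPC2 and P-RPC arrays overlapped, and the rESC-RPC1 arrays stood far above both. Cd9 was 4.26-fold lower in rESC-RPC2 than in rESC-RPC1. Against P-RPC, the log2 fold change of rESC-RPC2 was 0.37 (SE 0.16, adjusted p = 0.0558). Cd81, a tetraspanin that partners with integrins, had 7759, 7833 and 7993 in rESC-RPC2, 15120, 14840 and 15060 in rESC-RPC1 and 4848, 5174 and 4929 in P-RPC. The 3 groups were well apart, and replicates of each lay close together. Log2 fold changes were 0.66 in rESC-RPC2 (SE 0.05, adjusted p = 1.95e-06), which is under 2-fold, and 1.59 in rESC-RPC1 (SE 0.05, adjusted p = 8.19e-09). Cd63, a tetraspanin of late endosomes and exosomes, read 5457, 4223 and 4782 in rESC-RPC2, 9974, 8428 and 11120 in rESC-RPC1 and 3734, 3697 and 4004 in P-RPC, and was called higher only in rESC-RPC1 (1.36, SE 0.11, adjusted p = 3.76e-06). Between the kinds of rESC-RPCs, the log2 fold change of Cd63 was -1.03 (SE 0.11, adjusted p = 5.12e-05), which fell short of 2-fold at -0.94 without rESC-RPC1 replicate 3 or without rESC-RPC2 replicate 2.

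Cd44, the hyaluronan receptor of glia and mesenchymal cells, had signals of 487.6, 345.9 and 501.3 in rESC-RPC2, 957, 649.3 and 1670 in rESC-RPC1 and 811.9, 761.5 and 711 in P-RPC. The rESC-RPC1 arrays spread on both sides of P-RPC, and rESC-RPC2 was the lowest. In rESC-RPC2 against rESC-RPC1 the log2 fold change was -1.21 (SE 0.28, adjusted p = 0.00527), and without rESC-RPC1 replicate 3 it was -0.84 and not called. Against P-RPC it was -0.79 in rESC-RPC2 (adjusted p = 0.0305) and 0.41 in rESC-RPC1 (adjusted p = 0.229). On a dimmer probe set of Cd44 rESC-RPC1 was called higher (1.43 against P-RPC, SE 0.33, adjusted p = 0.00391), with 1043, 569.9 and 1721 in rESC-RPC1 and 365.2 to 383.5 in P-RPC.

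Icam1 and Vcam1 are ligands of leukocyte integrins on endothelium and activated glia. Icam1 (gene ID 25464) read 163.1, 140.7 and 108.6 in rESC-RPC2, 323.8, 153 and 367.7 in rESC-RPC1 and 9.157, 8.482 and 7.189 in P-RPC. It was at least 1.11-fold higher in rESC-RPC2 (adjusted p = 6.74e-06) and at least 2.15-fold higher in rESC-RPC1 (adjusted p = 1.72e-06). These bounds are small because the rESC-RPC signals lay close to the threshold, 1 of them under it. With signals under the threshold raised to it, the log2 fold change of Icam1 in rESC-RPC2 was 0.20 and was not called (adjusted p = 0.549). The kinds of rESC-RPCs differed by -0.96 (SE 0.37, adjusted p = 0.0544), which was -1.35 and called without rESC-RPC1 replicate 2. Vcam1 had 471.1, 920.2 and 645.7 in rESC-RPC2, 2311, 2037 and 1434 in rESC-RPC1 and 1015, 886.1 and 1043 in P-RPC. The rESC-RPC1 arrays were the highest, and rESC-RPC2 overlapped P-RPC. Vcam1 was called lower in rESC-RPC2 than in rESC-RPC1 (-1.53, SE 0.23, adjusted p = 0.000396), and against P-RPC it was 0.95 higher in rESC-RPC1 on the log2 scale (SE 0.23, adjusted p = 0.00504), under 2-fold, but 1.15 without rESC-RPC1 replicate 3. Icam2 and Icam5 were not tested, and Cdh5, the cadherin of endothelium, was not analysed here.

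The classical cadherin of the neural retina differed little. Cdh2 (gene ID 83501) had signals of 6744, 6790 and 6627 in rESC-RPC2, 5362, 4868 and 6345 in rESC-RPC1 and 5349, 5716 and 5468 in P-RPC. The rESC-RPC2 arrays were slightly above the others, and rESC-RPC1 overlapped P-RPC. Log2 fold changes were 0.29 in rESC-RPC2 (SE 0.09, adjusted p = 0.0154) and -0.00 in rESC-RPC1 (SE 0.09, adjusted p = 0.968), and 0.29 in rESC-RPC2 against rESC-RPC1 (adjusted p = 0.0193). Cdh1, the E-cadherin of epithelium and of stem cell colonies, was under the threshold on all 6 rESC-RPC arrays, with 32.85, 29.45 and 24.95 in rESC-RPC2, 4.385, 5.605 and 11.73 in rESC-RPC1 and 203.3, 150.5 and 191.3 in P-RPC. The difference from P-RPC was at least 1.47-fold for rESC-RPC2 (adjusted p = 0.00119) and for rESC-RPC1 (adjusted p = 2.34e-05). Cdh1 passed the filter only through P-RPC, so it had to differ and these p-values are no separate evidence. The call between the kinds of rESC-RPCs is one between dim values and no fold is given. With signals under the threshold raised to it, Cdh1 differed from P-RPC by -0.56 on the log2 scale in both and was not called. Cdh15, the M-cadherin of muscle and cerebellum, was likewise detected in P-RPC alone, at 166.6 to 228.2, at least 1.60-fold above both rESC-RPC groups, and was not called with signals raised in this way (-0.68 in both).

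Type II cadherins, which mark groups of neurons and mesenchyme, went both ways. Cdh10 had 680, 886 and 794.2 in rESC-RPC2, 446.7, 447.8 and 375.4 in rESC-RPC1 and 121.6, 91.71 and 112.1 in P-RPC. It was at least 6.38-fold higher in rESC-RPC2 (adjusted p = 1.81e-07) and at least 3.44-fold higher in rESC-RPC1 (adjusted p = 2.32e-06). The 3 groups did not overlap, though the difference between the kinds of rESC-RPCs was 1.85-fold. Cdh11, a cadherin of mesenchyme and glia, was highest in P-RPC on its brightest probe set, with 4189, 3260 and 3019 in rESC-RPC2, 4853, 4617 and 5141 in rESC-RPC1 and 6787, 6801 and 6877 in P-RPC. Its log2 fold changes of -0.98 in rESC-RPC2 (SE 0.11, adjusted p = 2.22e-05) and -0.49 in rESC-RPC1 (SE 0.11, adjusted p = 0.00265) were under 2-fold, and that in rESC-RPC2 was -1.12 and called without rESC-RPC2 replicate 1. On a dimmer probe set of Cdh11 the rESC-RPC2 arrays overlapped P-RPC, and the values were -0.19 in rESC-RPC2 and -0.33 in rESC-RPC1, not called. Cdh6 read 104.4 to 160.7 in rESC-RPC2, 210.3 to 304.5 in rESC-RPC1 and 60.15 to 85.98 in P-RPC, and the difference between rESC-RPC1 and P-RPC was at least 2.13-fold (adjusted p = 6.38e-05). The kinds of rESC-RPCs differed in Cdh6 by -1.02 on the log2 scale (SE 0.24, adjusted p = 0.00568), a call that was lost without rESC-RPC1 replicate 2 or 3 or rESC-RPC2 replicate 1 (-0.97, -0.91 and -0.87), while the value of rESC-RPC2 against P-RPC, 0.92, was called without P-RPC replicate 2 or rESC-RPC2 replicate 1 (1.09 and 1.07). With signals raised to the threshold the kinds of rESC-RPCs differed in Cdh6 by -0.94, which was not called. Cdh20 was detected in P-RPC alone (223.2 to 245.6) at a level at least 1.92-fold above both rESC-RPC groups, but with signals raised to the threshold it differed by -0.94 in both and was not called. Cdh7, another type II cadherin, was at least 2.03-fold lower in rESC-RPC1, while the value of rESC-RPC2 was -0.93 on the log2 scale and not called, but -1.01 and called without rESC-RPC2 replicate 3.

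Cdh13, a cadherin without the intracellular tail, held to the membrane by a lipid anchor, had 393.8, 476.4 and 348.5 in rESC-RPC2, 471.3, 584.3 and 370.4 in rESC-RPC1 and 100.7, 143 and 93.4 in P-RPC. The arrays of both rESC-RPC groups overlapped each other and lay above P-RPC. Log2 fold changes of Cdh13 were 1.87 in rESC-RPC2 (SE 0.21, adjusted p = 3.19e-05) and 2.08 in rESC-RPC1 (SE 0.21, adjusted p = 1.70e-05), and its other 2 probe sets were called higher too, by 2.40 to 3.05. Of the remaining cadherins, Cdh3 and Cdh8 reached the threshold on too few arrays to be tested, with 125 and 218.4 as their highest signals, and Cdh12, Cdh16, Cdh17 and Cdh23 did not reach it on any array.

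**Figure D3:**
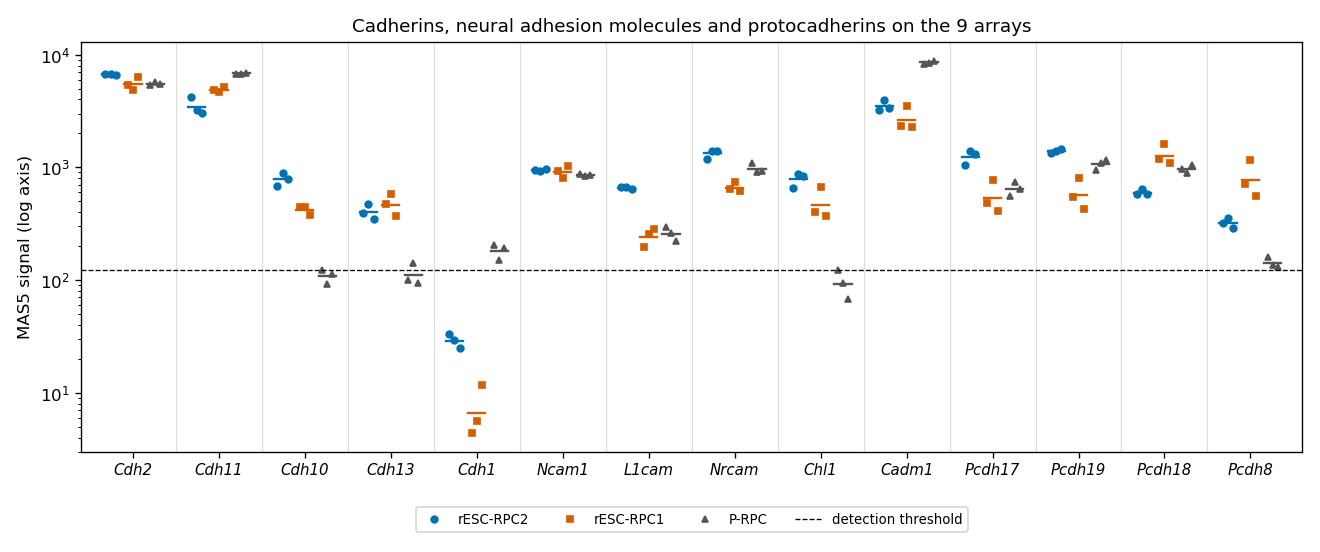
MAS5 signals (vertical log axis) of 14 cadherins, neural adhesion molecules and protocadherins on the 9 arrays, with rESC-RPC2 as circles, rESC-RPC1 as squares and P-RPC as triangles, a bar at each geometric mean and a dashed line at the detection threshold. L1cam stands at 648.2 to 670.8 in rESC-RPC2, against 195.4 to 285.3 in rESC-RPC1 and 223.9 to 297.7 in P-RPC, while Cdh2 and Ncam1 stay near 1 level.

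Among the neural adhesion molecules, L1cam was the gene called higher in rESC-RPC2 against both other groups. L1cam (gene ID 50687), which acts in axon growth and bundling, had 664, 670.8 and 648.2 in rESC-RPC2, 195.4, 256.6 and 285.3 in rESC-RPC1 and 297.7, 259.7 and 223.9 in P-RPC. The rESC-RPC1 and P-RPC arrays overlapped. Log2 fold changes were 1.35 in rESC-RPC2 against P-RPC (SE 0.16, adjusted p = 3.79e-05), -0.09 for rESC-RPC1 against P-RPC (SE 0.16, adjusted p = 0.641) and 1.45 in rESC-RPC2 against rESC-RPC1 (SE 0.16, adjusted p = 5.16e-05). Nrcam, a relative of L1cam at nodes and on growing axons, had 1187, 1398 and 1408 in rESC-RPC2, 638.2, 733.6 and 616.8 in rESC-RPC1 and 1093, 911.2 and 928.3 in P-RPC. It was called higher in rESC-RPC2 than in rESC-RPC1 (1.01, SE 0.11, adjusted p = 6.24e-05), and its other 2 probe sets were called too (1.01 and 1.38), but the value lies at the 2-fold threshold and was 0.96 to 0.98 without any 1 of rESC-RPC1 replicates 1 and 3 and rESC-RPC2 replicates 2 and 3. The position of rESC-RPC1 below P-RPC did not hold on every probe set of Nrcam, since on 1 of them the arrays read 767, 872 and 826.8 in rESC-RPC2, 438, 470.9 and 331.3 in rESC-RPC1 and 395.9, 421.1 and 400.3 in P-RPC, with log2 fold changes against P-RPC of 1.02, which was called, and 0.01. The neuron marker genes had a summed signal of 47670 to 52830 in rESC-RPC2, 19770 to 27670 in rESC-RPC1 and 24540 to 29770 in P-RPC, highest in rESC-RPC2 like that of L1cam, and their part in these differences was not tested.

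Chl1, the close homologue of L1, was called higher in both kinds of rESC-RPCs. Its signals were 659.7, 881.5 and 833.7 in rESC-RPC2, 403.7, 672.5 and 366.4 in rESC-RPC1 and 121.5, 94.34 and 67.7 in P-RPC. It was at least 6.41-fold higher in rESC-RPC2 (adjusted p = 3.74e-06) and at least 3.78-fold higher in rESC-RPC1 (adjusted p = 2.99e-05). The difference between the kinds of rESC-RPCs, 0.76, was 1.03 and called without rESC-RPC1 replicate 2. Cadm1, a synaptic and epithelial adhesion molecule, was called lower, with 3195, 3931 and 3344 in rESC-RPC2, 2341, 3510 and 2260 in rESC-RPC1 and 8249, 8465 and 8851 in P-RPC. The P-RPC arrays stood well apart from the rest. Log2 fold changes of Cadm1 were -1.29 in rESC-RPC2 (SE 0.15, adjusted p = 3.43e-05) and -1.69 in rESC-RPC1 (SE 0.15, adjusted p = 6.12e-06).

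The contactins, lipid-anchored partners of L1-type molecules, were dim. Cntn1 and Cntn4 reached the threshold in P-RPC alone, at 152.3 to 199.4 and 193.4 to 320.9, and were at least 1.38-fold and at least 2.07-fold lower in both rESC-RPC groups, though Cntn1 was not called with signals raised to the threshold (-0.47 in both). Cntn3 stood at least 1.54-fold above P-RPC in rESC-RPC1 (adjusted p = 0.0102), where 2 of 3 arrays reached the threshold. This call was lost with signals raised to the threshold (0.63, adjusted p = 0.0883) and under the methods' t-test after adjustment (adjusted p = 0.0847). Cadm3 stood at least 1.79-fold below P-RPC in rESC-RPC1 (adjusted p = 2.13e-05), and its call in rESC-RPC2 against rESC-RPC1 compares values of which 1 of 6 reached the threshold, and neither was called with signals raised to it (-0.84 and 0.04). Cntn2, Cntn5, Cntn6, Cadm4 and Ncam2 were not tested.

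Ncam1 (gene ID 24586), the neural cell adhesion molecule, was close to equal in the 3 groups on its brightest probe set, with 946.2, 927.3 and 968.2 in rESC-RPC2, 921.4, 806.7 and 1018 in rESC-RPC1 and 879.1, 842.8 and 857.2 in P-RPC. Log2 fold changes were 0.14 in rESC-RPC2 (SE 0.10, adjusted p = 0.233) and 0.08 in rESC-RPC1 (SE 0.10, adjusted p = 0.482). A different probe set of the gene gave 469.2, 627.3 and 594.8 in rESC-RPC2, 508.5, 660.3 and 1030 in rESC-RPC1 and 168.8, 156.2 and 140.2 in P-RPC. On that probe set both kinds of rESC-RPCs were called higher, by 1.86 (SE 0.23, adjusted p = 4.81e-05) and 2.18 (SE 0.23, adjusted p = 1.69e-05), where 23.9% and 21.9% of 17048 probe sets were called. The last probe set, near the threshold, was not called. Cdh22, a type II cadherin of the brain, split in the same manner, since its bright probe set spread from 877.4 to 2857 within P-RPC and was not called, while its dim one read 189.9 to 208.1 in rESC-RPC2, 249.3 to 358.1 in rESC-RPC1 and 27.98 to 37.32 in P-RPC and was called higher by 2.66 and 3.31. Of 25 adhesion genes with more than 1 probe set, some had at most 1 that was tested, such as Itga6 and Itga7, and could not show opposite calls. Among the genes with more than 1 tested probe set, no pair was called in opposite directions. In rESC-RPC2 against rESC-RPC1, where 14.2% of probe sets were called, a dimmer probe set of Itgb5 was called lower (-1.01, SE 0.22, adjusted p = 0.00331). The transcripts that each probe set detects were not analysed here.

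**Figure D4:**
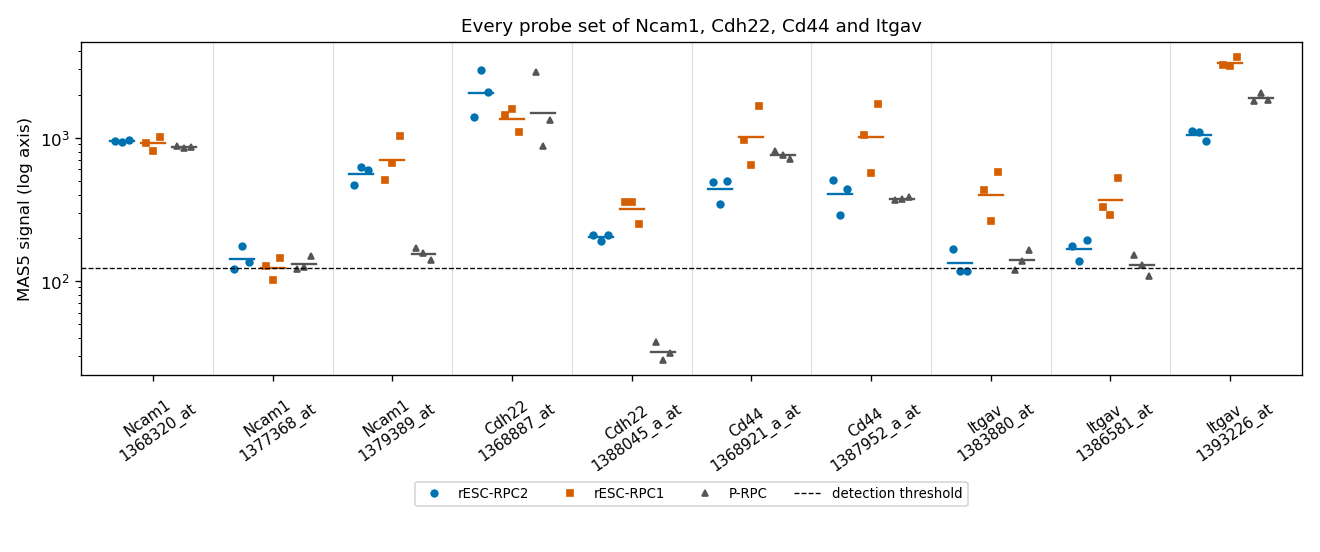
MAS5 signals (vertical log axis) on the 9 arrays for each probe set of Ncam1, Cdh22, Cd44 and Itgav, with rESC-RPC2 as circles, rESC-RPC1 as squares and P-RPC as triangles, a bar at each geometric mean and a dashed line at the detection threshold. A dimmer probe set of Ncam1 reads 140.2 to 168.8 in P-RPC and 469.2 to 1030 in the rESC-RPC groups, while the brightest of the same gene stays between 806.7 and 1018 on all arrays.

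Non-clustered protocadherins, which act in the sorting and wiring of neurons, separated the kinds of rESC-RPCs in both directions. Pcdh19 (gene ID 317183), a δ-protocadherin that works with N-cadherin, had 1352, 1407 and 1442 in rESC-RPC2, 547.5, 806.4 and 425.6 in rESC-RPC1 and 937.4, 1093 and 1161 in P-RPC. No arrays of the 3 groups overlapped. Its log2 fold change was 1.29 in rESC-RPC2 against rESC-RPC1 (SE 0.19, adjusted p = 0.000356), and against P-RPC it was 0.40 in rESC-RPC2 (adjusted p = 0.0909) and -0.89 in rESC-RPC1 (adjusted p = 0.00245), which became -1.13 and was called without rESC-RPC1 replicate 2. Pcdh17, a protocadherin of axons and synapses, had 1046, 1399 and 1322 in rESC-RPC2, 484, 770.4 and 412 in rESC-RPC1 and 554.6, 733.5 and 644.5 in P-RPC, and was called higher in rESC-RPC2 than in rESC-RPC1 (1.22, SE 0.21, adjusted p = 0.00102). Against P-RPC, its value of 0.96 in rESC-RPC2 was not called, but was 1.06 without P-RPC replicate 2 and 1.09 without rESC-RPC2 replicate 1, both called. Of the other probe sets of Pcdh17, 1 was called higher there (1.06, SE 0.30, adjusted p = 0.0101) and 1 was not called (0.86). Pcdh9 was also called higher in rESC-RPC2 than in rESC-RPC1, at the threshold (1.02, SE 0.16, adjusted p = 0.000585). It read 1250 to 1826 in rESC-RPC2, 623.4 to 883.7 in rESC-RPC1 and 764 to 949 in P-RPC. Without rESC-RPC1 replicate 3 or rESC-RPC2 replicate 2 it was 0.89 or 0.88 and not called.

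Pcdh18 and Pcdh8 were lower in rESC-RPC2 than in rESC-RPC1. Pcdh8, whose protein takes N-cadherin off the surface of neurons, had 319.6, 357.4 and 291.1 in rESC-RPC2, 712.7, 1173 and 555.7 in rESC-RPC1 and 161.5, 136.4 and 130.4 in P-RPC. No arrays of the 3 groups overlapped. Log2 fold changes of Pcdh8 were 1.18 in rESC-RPC2 against P-RPC (SE 0.23, adjusted p = 0.00136), 2.45 for rESC-RPC1 against P-RPC (SE 0.23, adjusted p = 1.03e-05) and -1.27 in rESC-RPC2 against rESC-RPC1 (SE 0.23, adjusted p = 0.00136), and the last was -0.97 without rESC-RPC1 replicate 2. Pcdh18 read 577.1, 638 and 579.9 in rESC-RPC2, 1195, 1596 and 1082 in rESC-RPC1 and 964.9, 896 and 1050 in P-RPC, with a log2 fold change of -1.09 between the kinds of rESC-RPCs (SE 0.14, adjusted p = 0.000129) that was -0.93 without rESC-RPC1 replicate 2. Pcdh20 read 171.5, 152.8 and 138.9 in rESC-RPC2, 108.2, 106.2 and 163 in rESC-RPC1 and 44.49 to 59.4 in P-RPC, so 2 of 3 rESC-RPC1 arrays were under the threshold as well. It was called higher, by at least 1.25-fold in rESC-RPC2 and at least 1.01-fold in rESC-RPC1, and both calls were lost with signals raised to the threshold (0.33 with adjusted p = 0.0477, and 0.14 with adjusted p = 0.382). Pcdh10 was not called in any comparison, but in rESC-RPC2 against rESC-RPC1 its 0.93 was 1.19 without rESC-RPC1 replicate 2 and 1.11 without rESC-RPC2 replicate 3, both called, and Pcdh15 was not tested.

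Clustered protocadherins give neurons a surface identity, and their genes lie in tandem with closely similar sequences, so reads of single members are uncertain. Of the 9 on the array with a probe set of their own, 6 were tested, and 3, 0 and 2 were called higher in rESC-RPC2 against P-RPC, rESC-RPC1 against P-RPC and rESC-RPC2 against rESC-RPC1, with 0 called lower in each, where the shares called higher over all genes were 10.7%, 12.0% and 5.02%. With 6 genes these counts are a description, and Pcdhb12 and Pcdhb6 passed the filter only through rESC-RPC2, so they had to differ. Pcdhb12 had 225.8, 230.6 and 213.3 in rESC-RPC2 and was under the threshold in both other groups, at least 1.82-fold below, and with signals raised to the threshold it was not called (0.86 against either group). Pcdhb9 read 347.9 to 498.6 in rESC-RPC2, 188.9 to 257.4 in rESC-RPC1 and 163.8 to 237.9 in P-RPC, and its log2 fold change of 1.05 against P-RPC (SE 0.20, adjusted p = 0.000929) lay at the 2-fold threshold, with 0.88 without P-RPC replicate 3 and 0.94 without rESC-RPC2 replicate 2. Pcdhb6 stood at least 1.16-fold above P-RPC in rESC-RPC2 (adjusted p = 0.00319), with 0.94 on the log2 scale and no call without P-RPC replicate 2, and 0.22 and no call with signals raised to the threshold. For Pcdha13 the kinds of rESC-RPCs differed by 1.04 on the log2 scale (SE 0.24, adjusted p = 0.0052), also at the threshold, with 0.84 without rESC-RPC1 replicate 1 and 0.93 without rESC-RPC2 replicate 2, both not called, and 0.90 and no call with signals raised to the threshold. Values just under 2-fold were called in rESC-RPC2 on leaving out an array for Pcdha13 against P-RPC (1.02 to 1.08) and for Pcdhb9 against rESC-RPC1 (1.02 and 1.08).

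Pcdhb19 and Pcdhb22 were tested and not called in any comparison, and Pcdha12, Pcdhb17 and Pcdhb21 did not reach the threshold on any array.

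Some probe sets carry the symbols of a whole cluster at once and therefore name no single gene. The 2 bright ones of the Pcdha cluster, with 15 symbols each, read 3017 to 3655 and 2120 to 2531 in rESC-RPC2, 1731 to 2369 and 1140 to 1357 in rESC-RPC1 and 1304 to 1650 and 900.9 to 1146 in P-RPC. Against P-RPC both were called higher in rESC-RPC2, by 1.18 (SE 0.13, adjusted p = 2.62e-05) and 1.23 (SE 0.12, adjusted p = 8.61e-06), and neither in rESC-RPC1 (0.42 and 0.27). The bright probe set of the Pcdhg cluster, with 13 symbols, read 3752 to 4124 in rESC-RPC2, 3392 to 3706 in rESC-RPC1 and 1954 to 2097 in P-RPC, with log2 fold changes of 0.96 and 0.82 that were under 2-fold.

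**Figure D5:**
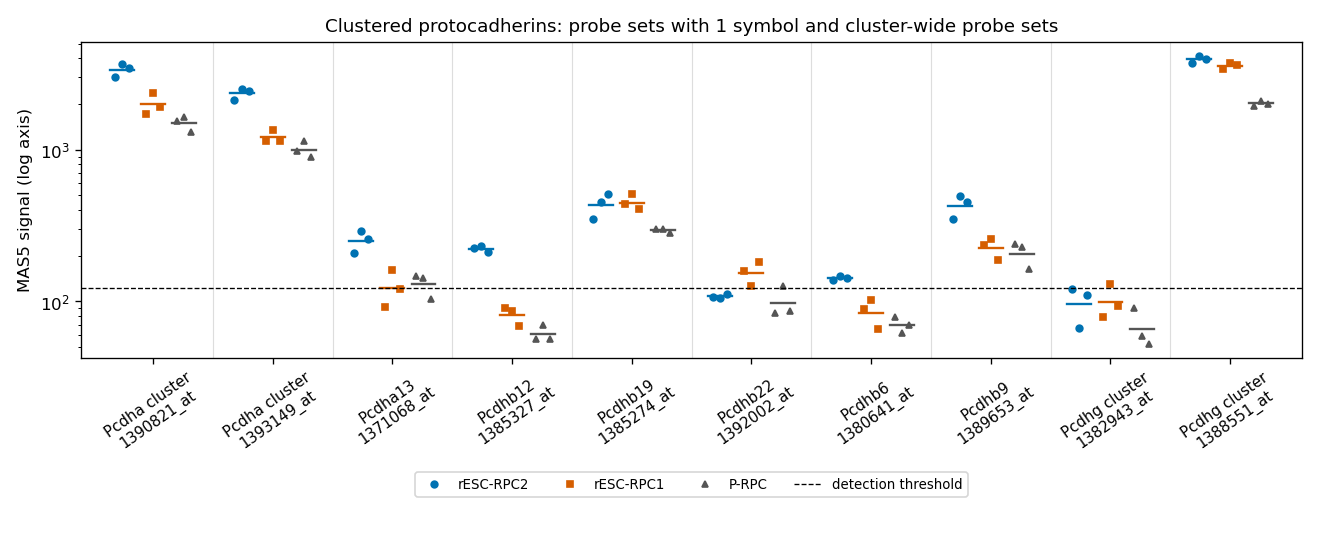
MAS5 signals (vertical log axis) on the 9 arrays for the tested clustered protocadherins and the probe sets that carry the symbols of the whole Pcdha or Pcdhg cluster, with rESC-RPC2 as circles, rESC-RPC1 as squares and P-RPC as triangles, a bar at each geometric mean and a dashed line at the detection threshold. The Pcdha cluster is highest in rESC-RPC2 on both of its probe sets, and the bright Pcdhg probe set reads 3392 to 4124 in the rESC-RPC groups, against 1954 to 2097 in P-RPC.

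The rESC-RPC1 arrays differed among themselves in several of these genes. Replicate 3 held the highest rESC-RPC1 signal of Itga6, Itga3, Itgb1, Itgb5, Cd44 and Cd63, and replicate 2 that of Pcdh8, Pcdh17, Pcdh18, Pcdh19, Chl1 and Cadm1. Over the 48 tested genes, replicates 1, 2 and 3 were the highest rESC-RPC1 array for 8, 20 and 20. The summed signal of mesenchymal and smooth muscle genes was 22370, 12400 and 16360 in rESC-RPC2, 32120, 19280 and 50560 in rESC-RPC1 and 998.3, 1061 and 1171 in P-RPC. That of astrocyte and radial glia genes was 14030, 20780 and 15930 in rESC-RPC2, 35100, 52880 and 23210 in rESC-RPC1 and 18470, 18610 and 22310 in P-RPC. The replicates therefore came in the opposite order for these lists within rESC-RPC1, and their part in the adhesion genes was not tested.

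The partners of integrins were followed with lists of other genes. Of 29 tested genes of focal adhesions and integrin signalling, 9 were called higher and 0 lower in rESC-RPC2 against P-RPC. In rESC-RPC1 against P-RPC the counts were 11 and 0. The median log2 fold changes were 0.37 and 0.69, where 10.7% and 12.0% of all genes were called higher. These counts are a description, since Tln2 and Tns1 had a mean under the threshold in P-RPC alone. Vcl, the focal adhesion protein vinculin, averaged 3716 ± 699 in rESC-RPC2, 3418 ± 1325 in rESC-RPC1 and 405 ± 68.1 in P-RPC (SD, n = 3 each). Tns3, a tensin that binds β integrin tails, averaged 2778 ± 468, 3715 ± 822 and 568.5 ± 32.7 in the same groups. The actin crosslinker Actn1 had log2 fold changes of 3.02 in rESC-RPC2 (SE 0.22, adjusted p = 1.40e-06) and 2.38 in rESC-RPC1 (SE 0.22, adjusted p = 8.46e-06), and the tetraspanin Cd151, a close partner of laminin-binding integrins, 1.02 and 1.87. Between the kinds of rESC-RPCs 1 of the 29 genes was called higher and 3 lower, where 14.3% of all genes were called. These counts are near that share and are no result about the list. Among the genes called lower in rESC-RPC2 was Cd82, a further tetraspanin, with -2.23 (SE 0.15, adjusted p = 3.17e-06).

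The matrix ligands of integrins were counted likewise. Of 16 tested ligands, 7 were called higher and 0 lower in rESC-RPC2 against P-RPC, 13 and 0 in rESC-RPC1 against P-RPC, and 0 and 11 in rESC-RPC2 against rESC-RPC1, with medians of 0.54, 2.25 and -1.59. Over all genes, 10.7% and 12.0% were called higher against P-RPC and 9.25% lower between the kinds of rESC-RPCs. These counts are a description, since a gene that enters the test through the groups where it is bright tends to differ. Spp1 and Lama2 had a mean at or above the threshold in rESC-RPC1 alone. Col1a2 and Fbln5 had one in both kinds of rESC-RPCs but not in P-RPC. Lamc1, the γ1 chain of most laminins, averaged 4187 ± 732 in rESC-RPC2, 8683 ± 2437 in rESC-RPC1 and 947.7 ± 47.1 in P-RPC (SD, n = 3 each). Fn1, fibronectin, averaged 6888 ± 1973, 9492 ± 2718 and 1257 ± 105 in these groups. Lama5, the laminin α5 chain, was called lower in rESC-RPC2 than in rESC-RPC1 (-1.88, SE 0.16, adjusted p = 1.05e-05), as was Tnc, tenascin-C (-1.92, SE 0.26, adjusted p = 0.000195). Matrigel, which is rich in laminin protein, was in the medium of both kinds of rESC-RPCs until day 8 and, with poly-D-lysine, coated the plates on which rESC-RPC1 was kept from day 10. The coating used for the adherent culture of rESC-RPC2 from day 14 is not given in the sources used here, so this exposure may differ between the kinds of rESC-RPCs. Its part in these levels was not tested.

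The cadherins were followed through their partners. Of 15 tested genes of the cadherin-catenin complex and adherens junctions, 2 were called higher and 2 lower in rESC-RPC2 against P-RPC, 0 and 3 in rESC-RPC1 against P-RPC, and 2 and 0 in rESC-RPC2 against rESC-RPC1. These counts of 4, 3 and 2 genes are near the shares called over all genes (23.7%, 21.5% and 14.3%) and are no result about the list. The genes called between the kinds of rESC-RPCs were the neuronal catenins, Ctnna2 with 2748 ± 126 in rESC-RPC2, 978.7 ± 313 in rESC-RPC1 and 987.9 ± 84.9 in P-RPC, and Ctnnd2 with 3026 ± 191, 973.1 ± 318 and 2945 ± 97.9 (SD, n = 3 each). Nectin3, which starts adherens junctions, was called lower in both, by -1.29 and -1.63 on the log2 scale, and so was Jup, plakoglobin, by -1.05 and -1.25. Of the cadherin repressors, 2 were tested and 0 called in each comparison, and Snai1, Twist1 and Twist2 were not detected in any group.

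Of 14 tested partners of the neural adhesion molecules, 2 were called higher and 1 lower in rESC-RPC2 against P-RPC, 2 and 2 in rESC-RPC1 against P-RPC, and 4 and 0 in rESC-RPC2 against rESC-RPC1. Over all genes 23.7%, 21.5% and 14.3% were called, so the counts against P-RPC are near the share over all genes. Cntnap2, a contactin-associated neurexin of axons, averaged 1934 ± 259 in rESC-RPC2, 456.3 ± 19.3 in rESC-RPC1 and 309.9 ± 24.9 in P-RPC (SD, n = 3 each). Dcx, a microtubule protein of young neurons that binds neurofascin and L1, averaged 6617 ± 693, 2045 ± 655 and 2072 ± 116 in these groups. Ank3, ankyrin-G, which holds L1-type molecules at the axon initial segment, was called lower in rESC-RPC1 (-1.56 against P-RPC, SE 0.21, adjusted p = 9.57e-05) and higher in rESC-RPC2 than in rESC-RPC1 (1.73, SE 0.21, adjusted p = 8.22e-05). The polysialyltransferases St8sia2 and St8sia4, which modify Ncam1, were not detected in any group.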

How the data were processed

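Gene expression of 3 samples each of rESC-RPC2, rESC-RPC1 and P-RPC was measured on Affymetrix Rat Genome 230 2.0 arrays, and samples were grouped by these labels. The authors made the deposited values as MAS 5.0 signals per probe set, intensities on a linear scale that were brought to a common trimmed mean per array (version and scan dates not given in the sources used here). Signals under 1 were set to 1 and taken to log2, without further scaling. Of 31099 probe sets, 57 controls were left out, and 20826 with 1 gene symbol were used for genes. A probe set was tested with at least 3 of 9 arrays at or above the 50th percentile of the values (123). The fit was made with limma 3.58.1 in R 4.3.3 (lmFit, eBayes with trend), with 1 mean per group over 9 arrays and no covariate, on 9956 genes, and separately on 17048 probe sets. Calls needed a Benjamini-Hochberg adjusted p under 0.05 and a 2-fold change. SE is the moderated standard error of limma. The script was tested on simulated data. Arrays correlated at r of 0.952 to 0.988 within groups and 0.738 to 0.909 between them, over tested genes, and 0 pairs were identical.

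The adhesion genes, their classes, 5 lists of partner genes and 12 lists of cell type markers were chosen with earlier results of these data known. By the rule for named genes, the text describes per comparison the 10 called adhesion genes of largest change when signals under the threshold are raised to it, per group the 5 of highest signal and 15 on the array with a known role, 29 in all, and up to 4 called genes of each partner list. Other adhesion genes were described after their values were seen. Replicate numbers were treated as unpaired, since same-numbered arrays deviated together with r of -0.04 to 0.27, over 0.1 in 1 of 9 pairs. Alternatives changed the scaling, filter, floor, probe set, test, threshold or arrays. RefSeq gene IDs matched 79 of the 81 genes.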

Additional observations from a re-analysis of the deposited data

Results flagged for a closer look

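In 4 adhesion genes called in rESC-RPC2 against rESC-RPC1, the arrays of the 2 kinds of rESC-RPCs lay on opposite sides of all P-RPC arrays. This fixes that these kinds also lie apart from each other. How many of all tested genes have this pattern was not counted, so the count is no result about the adhesion genes. The values of rESC-RPC2 against rESC-RPC1 are therefore a description of genes picked for this pattern, and their p-values are no separate evidence of it. For Itgav this log2 fold change was -1.67 (SE 0.09, adjusted p = 1.59e-06), with -0.85 in rESC-RPC2 and 0.83 in rESC-RPC1 against P-RPC. Pcdh18 had -1.09 (SE 0.14, adjusted p = 0.000129), with -0.70 and 0.39 against P-RPC. The neural genes Pcdh19 and Nrcam ran the other way, Pcdh19 with 1.29 (SE 0.19, adjusted p = 0.000356), with 0.40 and -0.89 against P-RPC, and Nrcam with 1.01 (SE 0.11, adjusted p = 6.24e-05), with 0.45 and -0.56 against P-RPC. Against P-RPC none of these values reached 2-fold. The pattern did not hold on other probe sets of Itgav, where rESC-RPC2 had -0.07 and 0.38 against P-RPC, nor on 1 of Nrcam, where rESC-RPC1 had 0.01 and its arrays overlapped P-RPC. The calls of Pcdh18 and Nrcam were lost when some single arrays were left out.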

How the results depend on the processing

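Against the 14, 16 and 9 adhesion genes called higher and 8, 10 and 10 called lower in rESC-RPC2 against P-RPC, rESC-RPC1 against P-RPC and rESC-RPC2 against rESC-RPC1, the stricter filter, which tested 26 adhesion genes, left 7, 8 and 5 higher and 3, 3 and 6 lower. With signals under the threshold raised to it, 4 and 5 were lower against P-RPC and 5 higher between the kinds of rESC-RPCs, and 22 of the 67 calls were lost, most of them with a group under the threshold. With 16 added before log2 the last count was 4. With no fold threshold, 25 were higher and 15 lower in rESC-RPC2 against P-RPC, and 18 and 16 in rESC-RPC2 against rESC-RPC1. Leaving out 1 array gave 12 to 16, 14 to 16 and 5 to 13 higher and 3 to 9, 5 to 11 and 5 to 10 lower. Without any 1 of the P-RPC arrays the counts of lower genes were 3 and 5, because Cdh1, Cdh15, Cdh20, Cntn1 and Cntn4, seen in P-RPC alone, then miss the filter. Without rESC-RPC1 replicate 3, 5 were lower in rESC-RPC2 against rESC-RPC1, and without rESC-RPC2 replicate 2, 5 were higher. The median of a gene's probe sets turned Cdh22 in rESC-RPC1 against P-RPC to a called 1.58, since its 2 probe sets differ. The replicate block, a paired fit on numbers that do not pair the arrays, kept the calls of all 144 values (48 genes in 3 comparisons), as did limma without trend, the methods' t-test at its unadjusted p, no filter and fits on the 6 arrays compared. The methods' t-test after adjustment lost 4 calls, Cntn3 in rESC-RPC1 against P-RPC and Cd44, Pcdh8 and Pcdha13 in rESC-RPC2 against rESC-RPC1. Over all settings 31 of 67 called values were lost at least once. Signals near the threshold limit what can be said of dim genes.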
